A study of Mus musculus with 12 samples.

Results

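The 32 genes described here encode the proteins that move calcium in and out of the cardiomyocyte cytosol and the channels that shape the cardiac action potential. They were chosen as a named list of calcium handling and ion channel genes, with earlier results of these data known. All 32 were found among the 23042 genes of each expression table, none of them on an entry shared with another gene. By role they comprise 9 genes of calcium release and storage in the sarcoplasmic reticulum, 3 of calcium uptake and its control, 4 of calcium entry and extrusion at the cell surface, 1 sodium channel subunit, 11 potassium channel genes, 2 gap junction genes, 1 pacemaker channel and 1 beta-adrenergic receptor.

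In each heartbeat, calcium entering through L-type channels opens ryanodine receptors, which release the far larger store held in the sarcoplasmic reticulum. The calcium is then pumped back by SERCA2, under the brake of phospholamban, or exported by the sodium-calcium exchanger. Potassium currents end the action potential, and gap junctions pass it from cell to cell.

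RNA was sequenced from heart ventricles and from epididymal white adipose tissue (EWAT) of wild-type (WT) mice and of MED13cTg mice, which carry a transgene that raises MED13, a subunit of the Mediator kinase module, in the heart. All were male C57BL/6 littermates aged 6 weeks on normal chow, fed ad libitum and sampled late in the day, and each genotype gave 3 libraries per tissue, 12 in all, which the methods of the study count as animals. The promoter of the transgene is not given in the sources used here. Levels are FPKM, fragments counted per length of transcript and scaled to the mapped fragments of the library, which can be compared between genes because they are per length. Each tissue was normalized in its own table, so genotypes were tested within a tissue only.

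The transgene was seen in ventricles, where Med13 stood at 13.1, 10.6 and 11.5 FPKM for WT against 263, 181 and 204 FPKM for MED13cTg (log2 fold change 4.08, limma adjusted p = 0.00028). In ventricles the summed level of 8 cardiomyocyte markers was 64405 to 71783 FPKM in WT and 64208 to 93331 FPKM in MED13cTg libraries. The 6 ventricle libraries formed 2 clusters by rank correlation that crossed genotype, one of WT replicate 1 with MED13cTg replicates 1 and 2 and the other of WT replicates 2 and 3 with MED13cTg replicate 3, with correlations from 0.944 to 0.969 overall. In EWAT, MED13cTg replicate 1 stood apart, with rank correlations of at most 0.494 with any other library. MED13cTg replicate 2 fell in the cluster of the WT libraries, with a highest correlation of 0.852. The lowest correlation, 0.350, was between these replicates. The 6 epididymis genes summed to 40338 to 51855 FPKM in the WT EWAT libraries and to 6745, 162 and 40099 FPKM in MED13cTg replicates 1, 2 and 3. The 6 germ cell genes reached 12823 FPKM in MED13cTg replicate 1 against at most 325 FPKM in the other EWAT libraries. The depth of FPKM data is unknown, but low values placed the fragments per library at 0.908 to 1.021 times those of WT replicate 1 in ventricles and at 0.712 to 0.933 times in EWAT.

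The list was first compared between the tissues of WT mice. In ventricles the WT means ran from 1.42 FPKM for Fkbp1b to 6229.5 FPKM for Atp2a2, a span that placed 11 of the 32 genes at 100 FPKM or more and 7 under 10 FPKM. Atp2a2, the SERCA2 pump, and Pln, its inhibitor phospholamban, had the highest levels of the list. The calcium sensor S100a1 followed with 1450.3 ± 238 FPKM for WT against 1463 ± 440.2 FPKM for MED13cTg (SD, n = 3). Ryr2, Casq2, Hrc and Trdn, which form the release channel and its luminal calcium store, lay between 368 and 556 FPKM in WT means. The low end held Hcn4, the sinus node pacemaker channel, with a WT mean of 2.19 FPKM, and Gja5, the connexin of atria and conduction tissue, with 3.74 FPKM.

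The FPKM values of 28 genes were higher in every WT ventricle library than in every WT EWAT library, and 12 genes had a WT EWAT mean under 1 FPKM. These values come from separately normalized tables and are set side by side without a test. Ratios of WT means exceeded 10 for 19 genes and 100 for 8. The largest were 4048 for Pln, 2239.7 for Trdn, the triadin that ties calsequestrin to the release channel, 845 for Ryr2 and 521 for Hrc, a luminal calcium-binding protein. Kcnip2, Kcnd2, Kcnj3 and Casq2 had ratios of 259, 124, 119.9 and 118. Of these 8 genes only Casq2, at 4.69 FPKM, had a WT EWAT mean of 1 FPKM or more, so the other ratios rest on low denominators. For Trdn the WT EWAT mean was 0.164 FPKM, from libraries between 0.0495 and 0.297 FPKM. The 3 genes that overlapped between the tissues, Kcnq1, Gja1 and Sri, had WT means of 24.2, 124 and 31.3 FPKM in ventricles and 21.5, 123 and 33.9 FPKM in EWAT. Fkbp1b, whose protein binds the ryanodine receptor, was the exception in the other direction, with 1.42 FPKM in WT ventricles and 11.8 FPKM in WT EWAT. The WT EWAT libraries also held 40338 to 51855 FPKM of the 6 epididymis genes, so their levels are not those of fat alone. The part of that RNA in the EWAT levels of these genes was not tested.

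**Figure D1:**
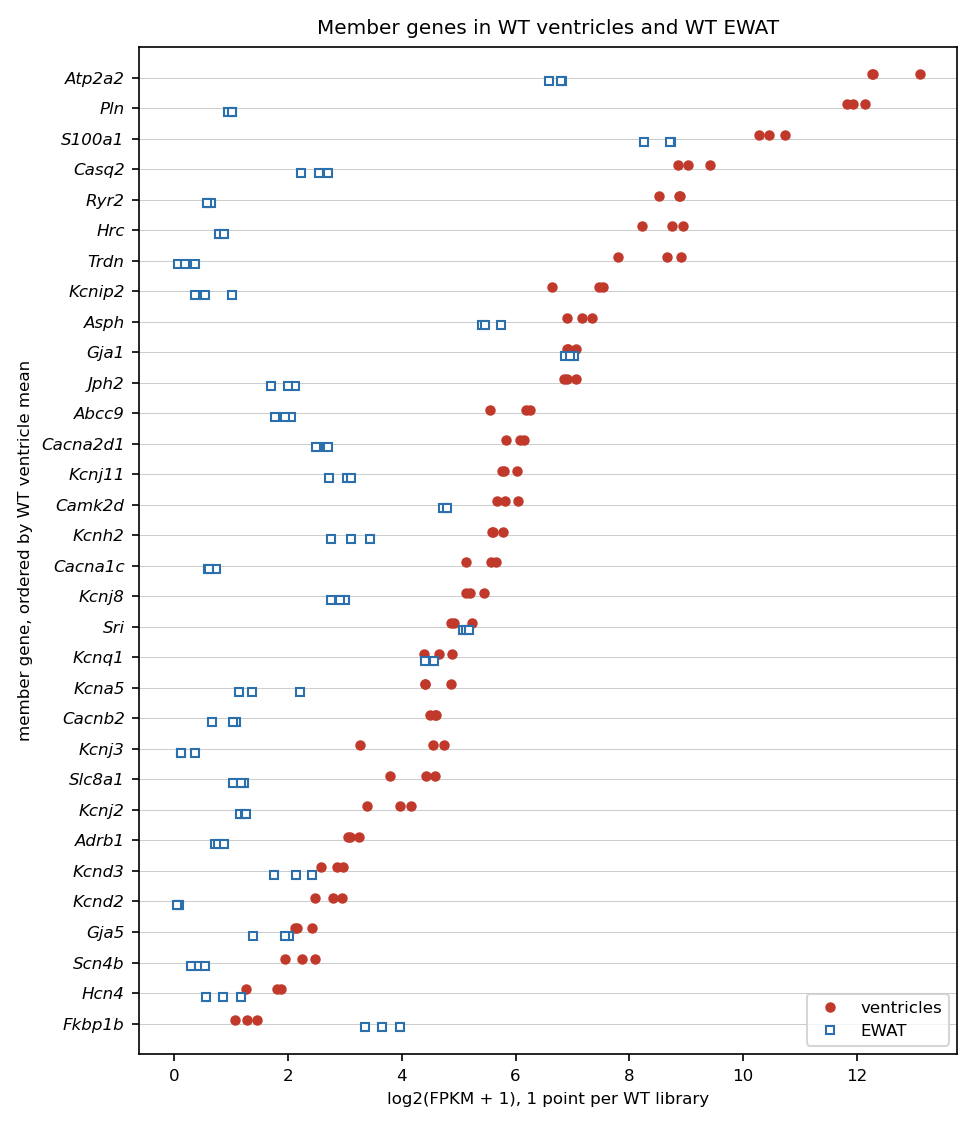
Levels of the 32 genes in WT libraries, with log2(FPKM + 1) on the x axis and genes on the y axis in the order of their ventricle mean. Each filled circle is a ventricle library and each open square an EWAT library (3 of each); 28 genes were higher in every ventricle library and Fkbp1b was higher in every EWAT library.

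Within ventricles the genotype comparison asked whether raised cardiac MED13 was accompanied by a shift in these genes. All 32 genes had a mean of at least 1 FPKM and were tested. None passed an adjusted p of 0.05 in limma, where 0.0556% of the 12589 genes tested did. At an unadjusted p under 0.05 there were 6 members (18.8%), all lower in MED13cTg, where 4.73% of all genes tested passed in either direction. Without WT replicate 2 there was 1 member (3.12%), where 2.3% of all genes passed. The list was chosen with earlier results of these data known, so this share gives no independent support. Means were lower in MED13cTg for 24 of the 32 genes and higher for 8, where 53.6% of all genes tested had lower means, and the ratios of MED13cTg to WT means ran from 0.401 to 1.29. The median log2 fold change of the 32 genes was -0.18, where the median over all genes tested was -0.01. With single libraries left out that median ran from -0.27 without WT replicate 1 to -0.10 without WT replicate 3. It was -0.12 without MED13cTg replicate 2 and -0.21 without MED13cTg replicate 3. With the library cluster as a covariate it was -0.14, where the median over all genes tested was -0.03. In bulk tissue fewer cells of a type and less RNA per cell cannot be told apart.

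**Figure D2:**
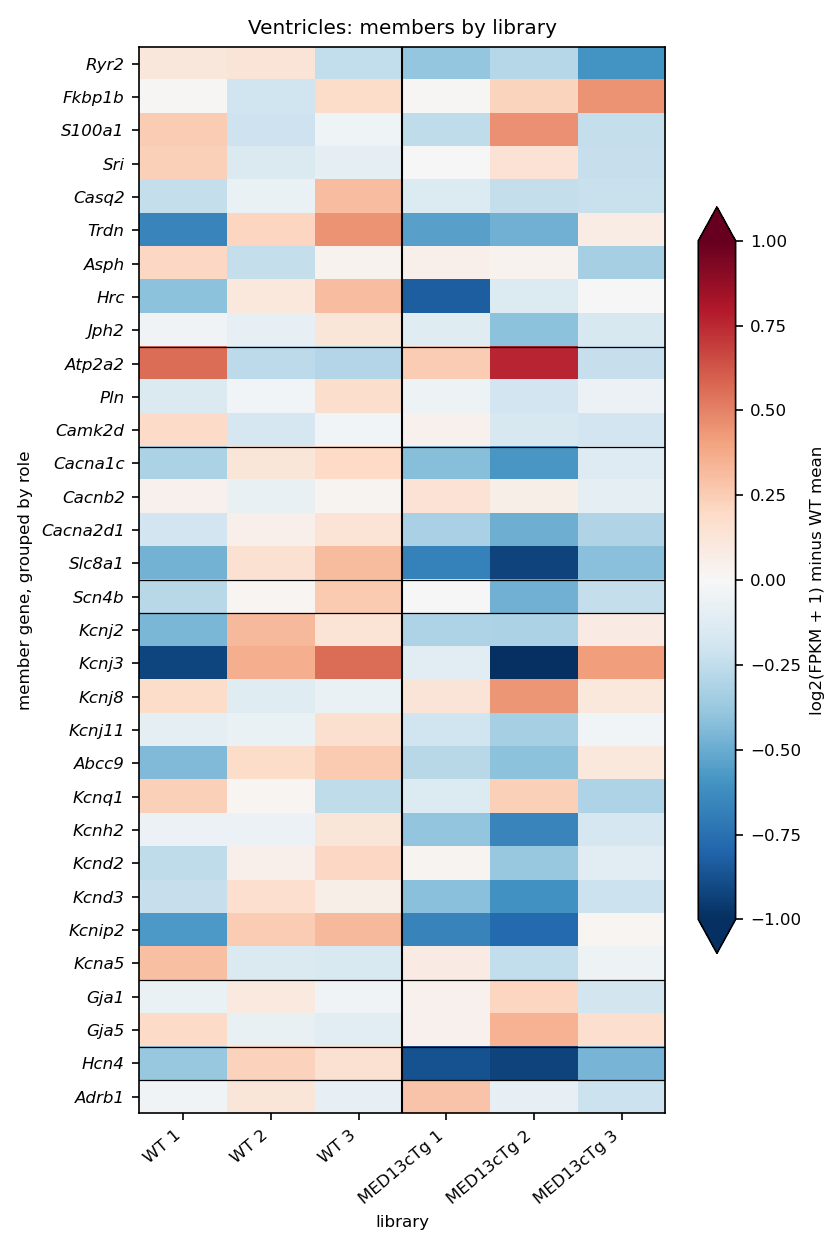
Each of the 32 genes (rows, grouped by role) in each of the 6 ventricle libraries (columns), coloured by log2(FPKM + 1) minus the WT mean of that gene. Blue cells are below and red cells above the WT mean. Hcn4, Slc8a1, Kcnh2 and Ryr2 were among the genes below it in all 3 MED13cTg libraries, while Kcnj3, Trdn and Atp2a2 varied widely within each genotype.

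For 5 genes (15.6%) every MED13cTg library lay below every WT library, namely Ryr2, Jph2, Cacna2d1, Kcnh2 and Hcn4, and for none did every MED13cTg library lie above. The shares over all genes tested were 5.85% below and 3.46% above. With the FPKM values rescaled by median-of-ratios factors the same 5 genes remained below and Kcnj8 lay above without overlap, while the shares over all genes became 4.82% below and 4.49% above. The promoters of these 5 genes are shown because they were without overlap, a choice made from these same values. None of them passed the adjusted threshold.

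Promoter sequences came from RefSeq on GRCm38.p6, each with 250 bases before and 50 bases after an annotated start, and 27 of the 32 genes had at least 1 entry, 31 in all. They were searched on both strands for GGGCGG (the GC box), CATTCC (the MCAT element of muscle genes), TATAAA (known from core promoters) and AGATAA (known as bound by factors of the GATA family), no match of one lying inside a match of another, and capitals mark every match. The other Jph2 entry, which overlaps the one shown, is left out.
Ryr2 (chr13:12106896-12107195, minus strand): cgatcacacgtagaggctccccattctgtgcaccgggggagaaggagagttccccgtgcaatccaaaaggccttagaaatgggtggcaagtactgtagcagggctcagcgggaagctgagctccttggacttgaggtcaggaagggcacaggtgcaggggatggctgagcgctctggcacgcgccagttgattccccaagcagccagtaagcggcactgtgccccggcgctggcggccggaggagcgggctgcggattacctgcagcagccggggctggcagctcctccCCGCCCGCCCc
Jph2 (chr2:163397944-163398243, minus strand): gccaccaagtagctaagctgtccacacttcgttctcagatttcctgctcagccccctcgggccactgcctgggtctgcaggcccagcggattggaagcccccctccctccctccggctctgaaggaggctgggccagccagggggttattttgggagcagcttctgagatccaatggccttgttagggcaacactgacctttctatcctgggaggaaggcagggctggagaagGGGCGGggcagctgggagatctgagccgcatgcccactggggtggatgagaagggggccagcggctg
Cacna2d1 (chr5:15934441-15934740, plus strand): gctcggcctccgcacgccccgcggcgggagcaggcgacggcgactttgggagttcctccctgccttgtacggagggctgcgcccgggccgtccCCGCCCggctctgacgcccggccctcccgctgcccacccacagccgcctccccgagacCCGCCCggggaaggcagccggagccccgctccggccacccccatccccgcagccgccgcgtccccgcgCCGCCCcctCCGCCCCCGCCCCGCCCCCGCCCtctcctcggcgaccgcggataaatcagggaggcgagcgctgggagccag
Kcnh2 (chr5:24329542-24329841, minus strand): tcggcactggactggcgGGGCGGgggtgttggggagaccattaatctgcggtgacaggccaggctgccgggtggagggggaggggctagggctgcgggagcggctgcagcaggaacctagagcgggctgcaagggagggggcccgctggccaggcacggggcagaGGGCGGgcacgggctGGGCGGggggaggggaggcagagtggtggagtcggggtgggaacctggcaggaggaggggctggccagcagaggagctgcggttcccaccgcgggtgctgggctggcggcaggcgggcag
Hcn4 (chr9:58822699-58822998, plus strand): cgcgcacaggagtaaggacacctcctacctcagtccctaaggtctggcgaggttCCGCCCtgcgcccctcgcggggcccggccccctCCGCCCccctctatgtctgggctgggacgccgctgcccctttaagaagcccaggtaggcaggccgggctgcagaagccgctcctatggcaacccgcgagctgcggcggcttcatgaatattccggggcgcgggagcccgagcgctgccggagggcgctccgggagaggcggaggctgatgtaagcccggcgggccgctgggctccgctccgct
All 5 windows held a GC box and none held a match to the other motifs in capitals. The matches to GGGCGG numbered 2 in Ryr2, 1 in Jph2, 7 in Cacna2d1, 3 in Kcnh2 and 2 in Hcn4. GC content ran from 63.0% in the Jph2 window to 80.0% in that of Cacna2d1. A GC box was found in 18 of the 31 promoters of the list (58.1%) and in 35.7% of all 32851 promoters, and the median GC content was 63.7% and 52.7%. CATTCC was found in 4 of the 31 (12.9%, Abcc9, Kcna5, Scn4b and Sri) and in 14.7% of all promoters. TATAAA was found in 1 (Pln, 3.23%) against 13.6%, and AGATAA in 3 (Gja1, Pln and Slc8a1, 9.68%) against 11.2%. The CArG box was not matched in these windows of the list, and 1.63% of all promoters held it. The MEF2 site was matched in those of Abcc9 and Casq2 (6.45%) against 1.86%. Such matches are descriptions of letters in these windows.

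Among the genes of calcium release and storage, 7 of 9 had lower means in MED13cTg ventricles, where 53.6% of all genes tested did. Ryr2, the ryanodine receptor through which the store empties, lies at chr13:11645369-12199212 in mm9 as listed. Its level was 466, 473 and 365 FPKM in WT replicates 1 to 3 and 330.2, 354 and 284 FPKM in MED13cTg replicates 1 to 3. The lowest WT library was just above the highest MED13cTg library, and the groups did not overlap (log2 fold change -0.42, standard error 0.16, limma adjusted p = 0.966). Jph2, junctophilin 2, holds the sarcoplasmic reticulum against the T-tubule and lies at chr2:163149311-163223729 in mm9. It stood at 118, 115 and 132 FPKM in WT, while the MED13cTg libraries had 112, 91.1 and 108 FPKM, without overlap, and MED13cTg replicates 1 and 3 were close to the lowest WT library (log2 fold change -0.23, standard error 0.13, limma adjusted p = 0.966). The difference was -0.14 without MED13cTg replicate 2. Casq2, calsequestrin 2, the main calcium buffer of the store, stood at 464, 524 and 678 FPKM for WT against 498, 465 and 471 FPKM for MED13cTg. The MED13cTg values lay close together, inside the WT range and near its lower end.

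Trdn was at 221, 406 and 477 FPKM in WT replicates 1 to 3 and 240.3, 250.2 and 369 FPKM in MED13cTg replicates 1 to 3, and its lowest value was in a WT library. Hrc was at 298, 427 and 490.2 FPKM in WT, while the MED13cTg libraries had 223, 361 and 397 FPKM, likewise overlapping. In both genes the 3 libraries of the cluster of WT replicate 1 were below the 3 others. Asph, the locus that also encodes junctin, had 141 ± 21.7 FPKM for WT against 133 ± 19.3 FPKM for MED13cTg (SD, n = 3), and Sri, sorcin, a calcium-binding modulator of the release channel, had 31.3 ± 4.75 FPKM for WT against 30.6 ± 4.06 FPKM for MED13cTg (SD, n = 3). S100a1 overlapped, with MED13cTg replicate 2 the highest of the 6 libraries at 1972 FPKM. Fkbp1b was at 1.43, 1.09 and 1.74 FPKM for WT against 1.42, 1.80 and 2.29 FPKM for MED13cTg, the largest ratio of means in the list at 1.29, with overlap and at a low level.

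Calcium uptake showed no separation of the genotypes. Atp2a2 was at 8802, 4999.8 and 4887 FPKM in WT replicates 1 to 3 and 7161, 10138 and 5114 FPKM in MED13cTg replicates 1 to 3, so that 1 WT and 2 MED13cTg libraries were high and the others low (log2 fold change 0.26, standard error 0.34, limma adjusted p = 0.966). The high libraries were those of the cluster of WT replicate 1, and with the cluster as a covariate the log2 fold change of Atp2a2 was 0.0011. Pln was at 3618, 3907 and 4501 FPKM in WT, while the MED13cTg libraries had 3848, 3495 and 3839 FPKM and overlapped (log2 fold change -0.10, standard error 0.17, limma adjusted p = 0.969). Camk2d, the kinase that phosphorylates phospholamban and the ryanodine receptor, stood at 64.8, 50.3 and 55.6 FPKM for WT against 58.3, 50.5 and 49.4 FPKM for MED13cTg, with overlap.

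At the cell surface, Cacna2d1, the auxiliary subunit that carries calcium channels to the membrane, is listed at chr5:15440508-15880329 in mm9. It stood at 55.7, 66.2 and 70.2 FPKM in WT replicates 1 to 3 and 50.6, 45.1 and 51.6 FPKM in MED13cTg replicates 1 to 3, and the 3 MED13cTg libraries lay close together below all WT libraries (log2 fold change -0.37, standard error 0.13, limma adjusted p = 0.966). Cacna1c, the pore-forming subunit of the L-type channel, was at 34.0, 46.5 and 49.1 FPKM in WT, while the MED13cTg libraries had 31.5, 28.1 and 39.0 FPKM. WT replicate 1 lay within the MED13cTg range, so the groups overlapped (log2 fold change -0.38, standard error 0.18, limma adjusted p = 0.966). Slc8a1, the sodium-calcium exchanger, was at 12.8, 20.4 and 22.9 FPKM for WT against 11.0, 9.08 and 13.4 FPKM for MED13cTg. It overlapped only through WT replicate 1, which was below MED13cTg replicate 3 (log2 fold change -0.67, standard error 0.23, limma adjusted p = 0.966). Cacnb2, the beta subunit of the L-type channel, differed little, with 22.6 ± 1.03 FPKM for WT against 23.2 ± 1.93 FPKM for MED13cTg (SD, n = 3). Scn4b, a beta subunit of the cardiac sodium channel, stood at 2.85, 3.72 and 4.58 FPKM in WT replicates 1 to 3 and 3.66, 2.35 and 2.96 FPKM in MED13cTg replicates 1 to 3 and overlapped.

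Of the 11 potassium channel genes, 10 had lower means in MED13cTg, where 53.6% of all genes tested did. Of these, Kcnj2, Kcnj3, Kcnj11, Abcc9, Kcnd3 and Kcnip2 were lower in the whole cluster of WT replicate 1, which also holds MED13cTg replicates 1 and 2. With the cluster as a covariate the log2 fold change was 0.16 for Kcnj3, -0.0023 for Kcnj2 and -0.0050 for Abcc9. It was -0.12 for Kcnj11, -0.21 for Kcnip2 and -0.31 for Kcnd3. Only 1 of the 11 genes was without overlap. That was Kcnh2, the pore of the rapid delayed rectifier, at chr5:23825406-23857422 in mm9. Its level was 47.3, 47.2 and 53.6 FPKM in WT, while the MED13cTg libraries had 37.3, 30.8 and 43.8 FPKM, with the highest MED13cTg library a little below the lowest WT library (log2 fold change -0.41, standard error 0.15, limma adjusted p = 0.966). Kcnd3, a pore subunit of the transient outward current, stood at 4.97, 6.86 and 6.30 FPKM for WT against 4.24, 3.59 and 5.03 FPKM for MED13cTg, overlapping through WT replicate 1 and MED13cTg replicate 3. Kcnd2, the other such subunit, overlapped more widely, at 4.59, 5.91 and 6.69 FPKM in WT replicates 1 to 3 and 5.78, 4.12 and 5.18 FPKM in MED13cTg replicates 1 to 3. Kcnip2, their accessory subunit, was at 98.3, 175 and 185 FPKM in WT, while the MED13cTg libraries had 92.3, 85.2 and 149 FPKM. It was under 100 FPKM in WT replicate 1 and MED13cTg replicates 1 and 2 and above it in the 3 other libraries, which is the division of the library clusters.

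Kcnj2, the inward rectifier that sets the resting potential, was at 9.43, 16.9 and 14.8 FPKM for WT against 10.6, 10.5 and 14.1 FPKM for MED13cTg, with overlap (log2 fold change -0.18, standard error 0.22, limma adjusted p = 0.966). That difference was -0.41 without WT replicate 1, -0.02 without WT replicate 2 and -0.0023 with the cluster as a covariate. Kcnj3, a subunit of the acetylcholine-activated channel, had the largest standard error of the list, 0.48 on the log2 scale, at 8.59, 22.3 and 25.7 FPKM in WT replicates 1 to 3 and 15.8, 8.07 and 23.2 FPKM in MED13cTg replicates 1 to 3. The ATP-sensitive channel genes also overlapped. Its pore gene Kcnj11 had 57.4 ± 5.79 FPKM for WT against 50.4 ± 5.59 FPKM for MED13cTg (SD, n = 3), and its sulfonylurea receptor gene Abcc9 had 64.6 ± 16.1 FPKM for WT against 55.9 ± 10.9 FPKM for MED13cTg (SD, n = 3). Kcnj8, another pore subunit known from vascular mural cells, was the only potassium channel gene with a higher mean in MED13cTg, at 42.5, 34.1 and 35.6 FPKM in WT, while the MED13cTg libraries had 40.7, 50.8 and 40.2 FPKM. Kcnq1, the slow delayed rectifier, had 24.2 ± 4.29 FPKM for WT against 23.1 ± 4.79 FPKM for MED13cTg (SD, n = 3). Its locus also holds the antisense transcript Kcnq1ot1, and no strand setting is given in the sources used here, so reads of both may share these values. Kcna5, an ultrarapid delayed rectifier, had 22.8 ± 4.47 FPKM for WT against 21.5 ± 2.52 FPKM for MED13cTg (SD, n = 3).

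Both gap junction genes had slightly higher means in MED13cTg, with overlap. Gja1, connexin 43 of working myocardium, was at 118, 132 and 121 FPKM for WT against 127, 144 and 108 FPKM for MED13cTg (log2 fold change 0.02, standard error 0.14, limma adjusted p = 0.988), and the sign of its small difference turned under 4 alternatives. Gja5, connexin 40, was at 4.37, 3.48 and 3.36 FPKM in WT replicates 1 to 3 and 3.87, 5.01 and 4.31 FPKM in MED13cTg replicates 1 to 3 and overlapped. Hcn4, listed at chr9:58671318-58708762 in mm9, had the lowest ratio of means in the list, 0.401. It stood at 1.41, 2.67 and 2.48 FPKM in WT, while the MED13cTg libraries had 0.712, 0.649 and 1.27 FPKM, without overlap, although WT replicate 1 and MED13cTg replicate 3 were close (log2 fold change -0.76, standard error 0.22, limma adjusted p = 0.945). These are low levels, near the filter of 1 FPKM, and its log2 fold change was -1.23 with a pseudocount of 0.1 FPKM. Adrb1, the beta-1 adrenergic receptor, was at 7.56, 8.54 and 7.29 FPKM for WT against 9.73, 7.31 and 6.58 FPKM for MED13cTg, with nearly equal means.

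**Figure D3:**
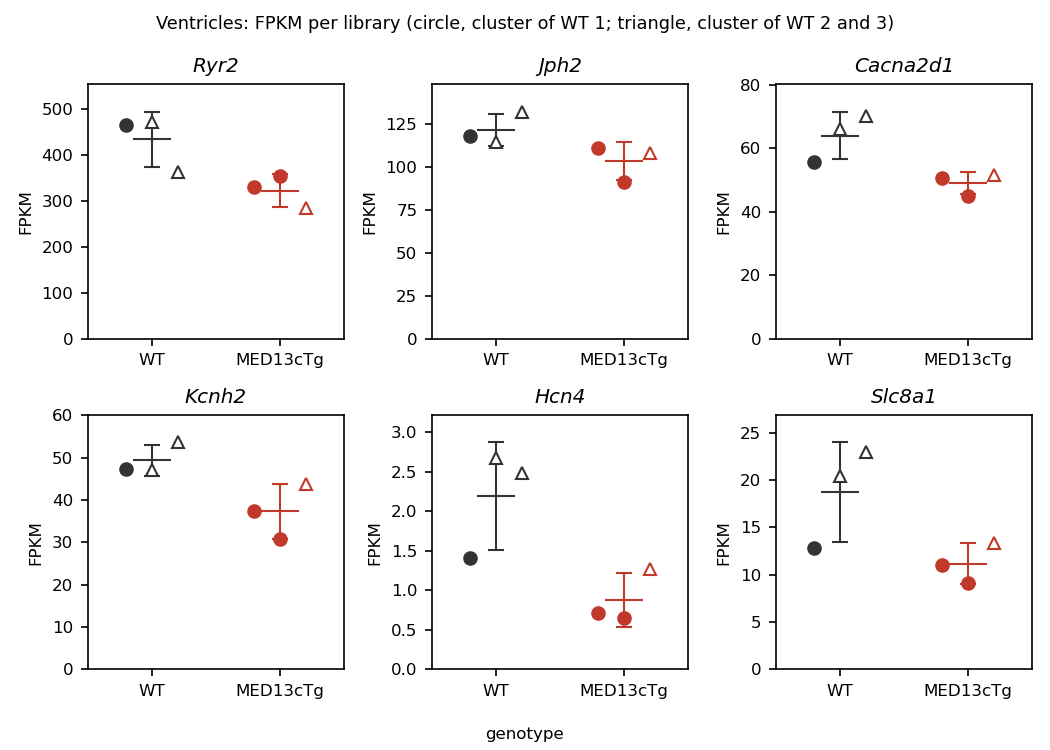
FPKM in ventricles of the 5 genes without overlap between genotypes and of Slc8a1, with genotype on the x axis and a y axis from 0. Each symbol is 1 library (circles, the cluster of WT replicate 1; triangles, that of WT replicates 2 and 3), and lines show the mean ± SD of 3 libraries; Hcn4 means were 2.19 FPKM in WT and 0.876 FPKM in MED13cTg.

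In 10 members all 3 libraries of the cluster of WT replicate 1 were below all 3 others (Trdn, Cacna1c, Slc8a1, Hrc, Kcnj2, Kcnj3, Kcnj11, Abcc9, Kcnd3 and Kcnip2), and in 5 they were above (Atp2a2, Asph, Cacnb2, Sri and Kcnj8), 46.9% in all. Of all genes tested, whose values formed the clusters, 40.2% were divided completely by them, so that the share of the members was near the background. Genotypes were therefore also set against each other within each cluster, which leaves 1 library of one genotype against 2 of the other and allows no test. In both clusters every MED13cTg library lay below every WT library in 13 of the 32 genes (40.6%), where 17.4% of all genes tested did so. No member lay above in both clusters, where 9.74% of all genes tested did. The 13 were Ryr2, Asph, Jph2, Cacna1c, Cacna2d1, Slc8a1, Camk2d, Sri, Kcnq1, Kcnh2, Kcnd3, Kcnip2 and Hcn4. The smallest log2 fold changes among them over all ventricle libraries were -0.03 for Sri, -0.07 for Kcnq1, -0.08 for Asph and -0.10 for Camk2d. The clusters were formed from the same libraries, so this share describes them and adds no independent support.

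Ryr2 differed by -0.45 in the cluster of WT replicate 1 and by -0.54 in the other, on the log2 scale. Slc8a1 differed by -0.33 and -0.65, Hcn4 by -0.52 and -0.66 and Kcnh2 by -0.47 and -0.19. Kcnj3 differed by 0.37 and -0.04, and Kcna5 by -0.38 and 0.10. With the cluster as a covariate in limma no member passed, and the lowest adjusted p was that of Hcn4 at 0.429, within a range of 0.162 to 1 over its alternatives.

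**Figure D4:**
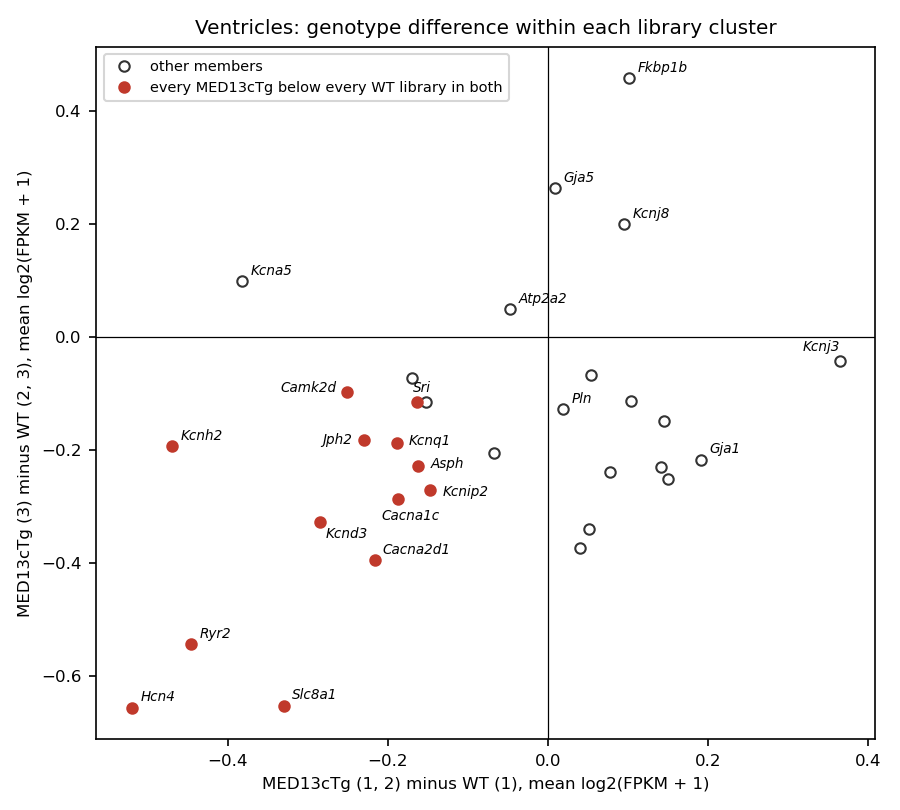
Genotype difference of each of the 32 genes in ventricles within the cluster of WT replicate 1 (x axis) and within the other cluster (y axis), as the difference of mean log2(FPKM + 1). Filled points are the 13 genes with every MED13cTg library below every WT library in both clusters, all in the lower left, with Hcn4 at -0.52 and -0.66.

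Markers of other cells were measured beside these values. The 7 atrial genes summed to 749, 497 and 454 FPKM in WT and to 999.6, 2461 and 1167 FPKM in MED13cTg ventricles. The sum was higher in every MED13cTg library, with Nppa, a natriuretic peptide gene also induced in ventricles, as the main contributor. Of the 7 genes Nppa alone was higher in every MED13cTg library, and the others overlapped between genotypes. Myl7, the atrial light chain, reached 322 FPKM in MED13cTg replicate 2 against 20.9 to 63.5 FPKM elsewhere, and Sln, sarcolipin of atrial muscle, reached 103 FPKM there against 4.30 to 20.3 FPKM. Bmp10 was listed at 0 in 5 libraries and at 0.489 FPKM in that library. Of the members known from atria, Gja5 was highest in that library at 5.01 FPKM, while Kcnj3 at 8.07 FPKM, Kcna5 at 18.9 FPKM and Hcn4 at 0.649 FPKM were at their lowest there. The 6 pericyte and smooth muscle genes summed to 370.4 to 385 FPKM in WT and 359 to 369.7 FPKM in MED13cTg, a small difference without overlap. Each of the 6 genes taken alone overlapped between genotypes, so the separation is of the sum only. The 5 endothelial genes summed to 276 to 374 FPKM and 294 to 413 FPKM, and 5 fibroblast genes to 652 to 781 FPKM and 533 to 796 FPKM, both overlapping. The 5 macrophage genes summed to 205 to 284 FPKM in WT and 242 to 334 FPKM in MED13cTg, with overlap, and 1 of them, Csf1r, was higher in every MED13cTg library. The part of these differences in the members' values was not tested.

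Proteins that work as partners were compared through ratios of their transcripts within each library, for 4 pairs, by exact two-sided permutation tests whose smallest p is 0.1 with 3 against 3 libraries. The ratio of Pln to Atp2a2 was 0.411, 0.781 and 0.921 in WT and 0.537, 0.345 and 0.751 in MED13cTg (log2 difference -0.36, exact p = 0.5), and the difference ran from -0.71 without WT replicate 1 to -0.07 without MED13cTg replicate 2. That of Fkbp1b to Ryr2 was 0.00306, 0.00232 and 0.00476 in WT and 0.00429, 0.00509 and 0.00805 in MED13cTg (log2 difference 0.79, exact p = 0.2). The genotypes overlapped in both ratios. The Slc8a1 to Atp2a2 ratio was 0.00146, 0.00408 and 0.00469 in WT and 0.00154, 0.000895 and 0.00262 in MED13cTg (log2 difference -0.98, exact p = 0.3). The Kcnj11 to Abcc9 ratio was 0.922 ± 0.210 in WT and 0.912 ± 0.0750 in MED13cTg (SD, n = 3; exact p = 1). Adjusted over the 4 pairs the exact permutation p-values were 0.667, 0.6, 0.6 and 1, and a design of this size could not bring any of them under 0.05.

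A further 66 genes of excitation-contraction coupling and membrane currents were listed, of which 56 passed the filter in ventricles. They were chosen with earlier results of these data known and come from the same libraries, so they are not independent of the members. None had an adjusted p under 0.05 in limma, and 11 (19.6%) had an unadjusted p under 0.05, where 4.73% of all genes did. In 12 (21.4%) the 3 MED13cTg libraries all lay below the WT range and in 1 (1.79%, Casq1, the skeletal calsequestrin) above it, where 5.85% and 3.46% of all genes did, and the median log2 fold change was -0.18. Among the differences without overlap, those of Kcne1, Adcy5 and Hcn2 were the largest. Kcne1, the partner of Kcnq1 in the slow delayed rectifier, was at 7.43, 3.74 and 5.65 FPKM in WT replicates 1 to 3 and 2.79, 3.45 and 2.80 FPKM in MED13cTg replicates 1 to 3. Adcy5, a cardiac adenylyl cyclase, was at 16.6, 21.3 and 21.4 FPKM in WT, while the MED13cTg libraries had 13.5, 9.49 and 13.3 FPKM. In both genes the WT values were all above those of MED13cTg. Hcn2, the pacemaker channel of the same family as Hcn4, was at 15.0, 13.3 and 14.5 FPKM for WT against 11.5, 7.08 and 8.26 FPKM for MED13cTg. Their log2 fold changes were -0.68, -0.67 and -0.64, with limma adjusted p-values of 0.966, 0.945 and 0.945.

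In EWAT 23 of the 32 genes had a mean of at least 1 FPKM and were tested, and 9 did not pass that filter (Ryr2, Trdn, Cacna1c, Cacnb2, Hrc, Scn4b, Kcnj3, Kcnd2 and Hcn4). None of the 23 had an adjusted p under 0.05 in limma, where 0.0134% of the 14967 genes tested did. Fkbp1b alone had an unadjusted p under 0.05, where 1.25% of all genes did, and it was not lower in every library, at 14.6, 9.26 and 11.5 FPKM in WT replicates 1 to 3 and 3.31, 3.25 and 9.72 FPKM in MED13cTg replicates 1 to 3. Kcnj2 was the single tested member with every MED13cTg library below every WT library, where 7.8% of all genes were below and 4.88% above (5.79% and 6.3% after median-of-ratios scaling). It stood at 1.23, 1.37 and 1.39 FPKM in WT, while the MED13cTg libraries had 0.256, 0.689 and 1.13 FPKM (log2 fold change -0.50, standard error 0.38, limma adjusted p = 0.738), and its log2 fold change was -1.03 with a pseudocount of 0.1 FPKM, -0.30 without MED13cTg replicate 1 and -0.13 without MED13cTg replicates 1 and 2. Among the genes under the filter, Ryr2 was at 0.492, 0.562 and 0.488 FPKM for WT against 0.309, 0.287 and 0.461 FPKM for MED13cTg and Kcnd2 at 0.0475, 0.0624 and 0.0292 FPKM in WT replicates 1 to 3 and 0.349, 0.0757 and 0.0628 FPKM in MED13cTg replicates 1 to 3, both without overlap and both close to 0.

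The EWAT values of the members varied chiefly between the MED13cTg libraries. The median of the tested members relative to the WT mean was -0.90 in MED13cTg replicate 1, -0.20 in replicate 2 and -0.08 in replicate 3, on the log2 scale. Gja1 was at 130.1, 116 and 123 FPKM in WT, while the MED13cTg libraries had 36.2, 41.4 and 119 FPKM, with MED13cTg replicate 3 inside the WT range and the others far below. Kcnq1 behaved alike, at 21.6, 20.2 and 22.8 FPKM for WT against 3.88, 1.52 and 21.6 FPKM for MED13cTg, and Kcnj11 was at 7.25, 5.59 and 7.66 FPKM in WT replicates 1 to 3 and 1.20, 0.267 and 6.11 FPKM in MED13cTg replicates 1 to 3. The vascular pair Kcnj8 and Abcc9 went both ways. Kcnj8 was at 5.79, 6.99 and 6.51 FPKM in WT, while the MED13cTg libraries had 1.09, 22.6 and 5.68 FPKM, and Abcc9 was at 2.40, 3.13 and 2.86 FPKM for WT against 0.662, 11.0 and 3.19 FPKM for MED13cTg, each lowest in replicate 1 and highest in replicate 2. The 5 endothelial genes summed to 15.5, 309 and 84.9 FPKM in the same 3 libraries and to 67.7 to 135 FPKM in WT. Pln was at 0.922, 1.02 and 1.03 FPKM in WT replicates 1 to 3 and 5.86, 3.24 and 0.701 FPKM in MED13cTg replicates 1 to 3, and Kcnip2 reached 6.93 FPKM in MED13cTg replicate 1 against at most 1.02 FPKM in the other libraries. The 6 adipocyte genes summed to 12310.3 to 29239 FPKM in WT and to 1148, 71837 and 15564 FPKM in MED13cTg. The part of the epididymal, germ cell, endothelial and adipocyte RNA in the EWAT values was not tested.

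**Figure D5:**
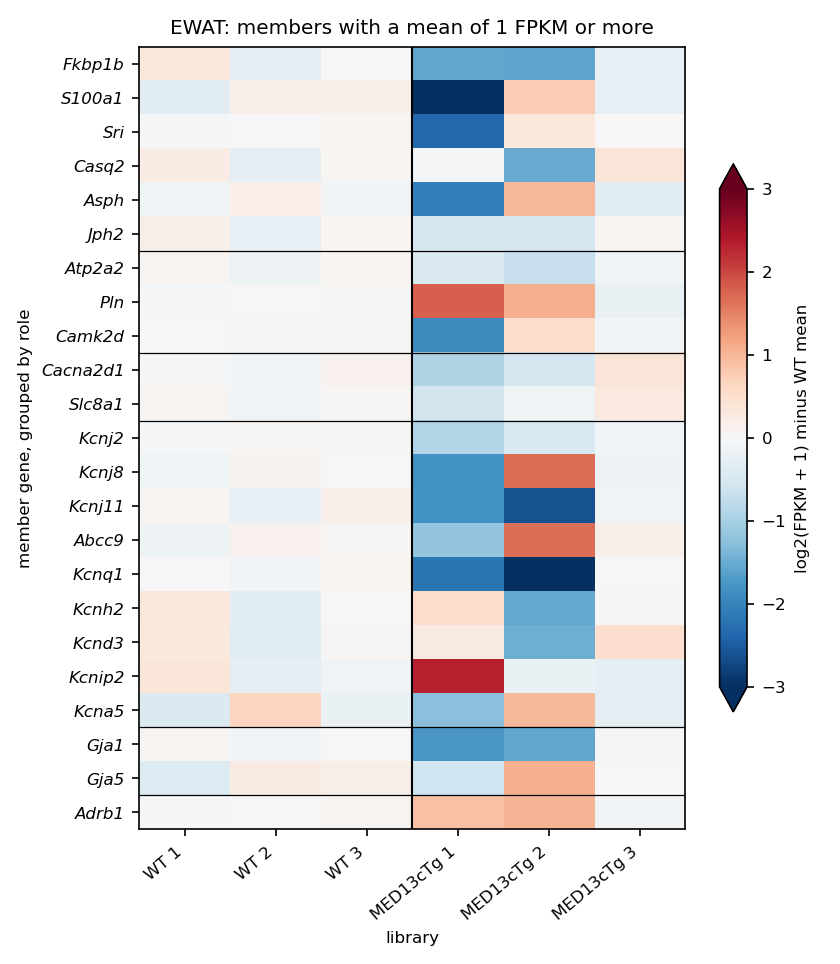
The 23 genes that passed the filter in EWAT (rows, grouped by role) in the 6 libraries (columns), coloured by log2(FPKM + 1) minus the WT mean. MED13cTg replicates 1 and 2 depart from WT in both directions, and MED13cTg replicate 3 stays near the WT libraries, with a median of -0.08.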

How the data were processed

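Total RNA (1 ug per library, per the labels) was sequenced from ventricles and EWAT of 3 WT and 3 MED13cTg libraries each. The authors aligned reads with TopHat to mm9 and estimated gene levels with Cufflinks at default settings, versions not given in the sources used here, and deposited 1 FPKM table per tissue. The deposited mean and fold columns of the authors and 1 unnamed column of values were not used. FPKM corrects for length and mapped fragments but not for cell composition.

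In each tissue alone, limma 3.58.1 (R 4.3.3, lmFit and eBayes with a trend) was fitted to log2(FPKM + 1) of the genes whose mean across 6 libraries reached 1 FPKM, with Benjamini-Hochberg adjustment over all genes tested and a threshold of 0.05. Fold changes are on that scale, which understates low genes. Ratios used exact permutation tests. The fit was tested on simulated data, with independent libraries of the WT spread and planted changes larger than those of the members here. That test does not gauge changes of the members' size. Other steps used Python 3.11.15, numpy 2.4.6, pandas 2.3.3, scipy 1.17.1 and matplotlib 3.10.9. The members and lists were chosen with earlier results of these data known.

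Named with full statistics were members past the threshold or without overlap between genotypes and 7 genes listed in the naming rule (Ryr2, Atp2a2, Pln, Slc8a1, Cacna1c, Kcnj2 and Gja1 in ventricles). Some genes of the wider list are not reported here. No 2 libraries were identical. Replicate numbers come from the labels. Deviations of same-numbered libraries correlated at 0.09, -0.19 and 0.14 in ventricles, which does not pair them. In EWAT they correlated at 0.35, 0.30 and 0.14, above 0.1 in every pair. There WT replicate 3 correlated at 0.17 with MED13cTg replicate 2, above its same-numbered value, so pairing is not shown in EWAT either. Relative fragments were read from FPKM values under 0.15. Alternatives were a pseudocount of 0.1, no filter, median-of-ratios scaling, array weights, the replicate block, the library cluster, and libraries left out.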

Additional observations from a re-analysis of the deposited data

How the results depend on the processing

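Over 30 results and 244 alternative values, 227 were labelled as kept, 4 as reversed and 13 as moved. A named gene was kept when its sign and its side of the threshold held. No member passed the adjusted threshold under any alternative run, so for genes the sign alone decided. Counts were kept within a set fold of the main value, and medians and ratios within their pooled SD. A kept sign can go with a much smaller value, as for Atp2a2 in ventricles. Its log2 fold change was 0.26 in the main fit and 0.0011 with the library cluster as a covariate. The count of all genes past the threshold in ventricles was 7, with 11 under array weights, 4 with the replicate block and 4 to 9 with each library left out, the lowest without MED13cTg replicate 2. In EWAT it was 2, with 0 under no filter, array weights or the replicate block, 19 without MED13cTg replicates 1 and 2 together, and 1 to 5 with single libraries left out. The replicate block changed no other call. The 4 reversals were of Gja1 in ventricles, whose log2 fold change of 0.02 became -0.0106 under array weights, -0.0129 with the library cluster as a covariate and ran from -0.0728 to 0.129 with single libraries left out. The number of members above WT without overlap in ventricles was 1 after median-of-ratios scaling. Members at an unadjusted p under 0.05 in ventricles numbered 6 (18.8%, against 4.73% of all genes), with 13 under array weights (40.6% against 18.7%), 9 without WT replicate 1 (28.1% against 11.8%), 1 without WT replicate 2 (3.12% against 2.3%), and 2 (6.25%) without WT replicate 3 or MED13cTg replicate 1 or 2, against 2.87%, 2.41% and 3.42%. In EWAT they numbered 1, and 8 without MED13cTg replicate 3 (36.4% against 16.1%). The median of the tested members in EWAT ran from -0.546 to 0.00979 with single libraries left out, the latter being the value without MED13cTg replicate 1. With single libraries left out in ventricles, the log2 fold change of Atp2a2 ran from 0.01 to 0.54 and that of Pln from -0.17 to -0.01. The log2 difference of the Slc8a1 to Atp2a2 ratio ran from -1.51 to -0.60. Kcnj2 in EWAT fell under the filter without any 1 of the WT libraries or without MED13cTg replicate 3, so those alternatives gave no value. The cause of these changes was not tested, and FPKM alone leaves the counting error of low genes such as Hcn4 unknown.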
